A study of Mus musculus with 9 samples.

Results

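The polo-like kinases Plk1, Plk2, Plk3 and Plk4 were followed by RNA sequencing in the mouse line RAW264.7, whose cells resemble macrophages. The 4 members were taken by gene symbol from a table of 53170 named genes, and each symbol stood on 1 line. The cells were wild type and grew in αMEM with serum in every group. Control cells were labelled only as a blank control, BMC cells were cultured on a membrane that the labels call BMC without spelling the name out, and BMC+LIPUS cells grew on that membrane and were stimulated with low-intensity pulsed ultrasound. Each group had 3 libraries, and no group had ultrasound without the membrane. Whether the 3 libraries of a group stem from separate cultures is not labelled, so p-values measure only a spread that may be technical.

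Polo-like kinases are serine/threonine kinases with a catalytic domain at one end and polo boxes at the other, which dock the enzyme onto partners that are usually already phosphorylated. Plk1 drives mitotic entry, centrosome maturation, chromosome segregation and cytokinesis, and Plk4 starts the duplication of centrioles. Plk2, once called Snk for serum-inducible kinase, and Plk3, once called Fnk, are early response genes that serum, DNA damage and other stresses induce in many cell types. In human macrophages PLK3 has been described as induced by adhesion.

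The family was picked with results of these data in view, among them the rise of Plk3 with ultrasound and the fall of mitotic genes on the membrane. Member levels and changes are therefore given as a description, with a standard error (SE) and no p-value. FPKM, the deposited unit, counts fragments per kilobase of transcript scaled to sequencing depth, and it is used for levels. Fitted log2 changes come from edgeR counts models over all 9 libraries and 12011 tested genes, where a gene was called at a Benjamini-Hochberg adjusted p under 0.05. Each of the 4 members passed the filter of a mean of 0.5 FPKM, and the control mean alone was above it for each.

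Libraries held 12675417 to 16574322 counts over named genes. Of 10 macrophage markers 9 were above the filter, Mertk being the exception, and the summed level of the list was 6608 to 7387 FPKM in control against 7241 to 7992 on the membrane alone and 7435 to 7680 with ultrasound. The 5 epithelial markers had 0 counts in every library, as did 5 of 7 fibroblast, 4 of 5 lymphocyte, 3 of 5 granulocyte and 1 of 4 endothelial markers. The other 2 fibroblast markers, of which Pdgfrb was above the filter, summed to 0.57 to 0.65 FPKM in control, 0.91 to 1.45 on the membrane and 1.22 to 1.45 with ultrasound as well. The granulocyte list, where S100a8 was above the filter, summed to 0.28 to 1.3 FPKM in control, 0.31 to 1.44 on the membrane and 0.19 to 0.31 with ultrasound added. The part of either list in the results was not tested.

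The 250 bases before the annotated start of each gene are shown because the members of each pair, mitotic and stress-induced, changed in 1 direction on the membrane, and capitals mark matches to 3 short motifs on either strand. The motifs are the cell cycle homology region, CHR (TTTGAA or TTCGAA), the CCAAT box (CCAAT) and the core of the cyclic AMP response element, CRE (TGACGT). All 4 members had an entry among the RefSeq promoters of build GRCm38.p6, which is not the build named for the counts. The motifs were chosen after the sequences had been seen.

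Plk1: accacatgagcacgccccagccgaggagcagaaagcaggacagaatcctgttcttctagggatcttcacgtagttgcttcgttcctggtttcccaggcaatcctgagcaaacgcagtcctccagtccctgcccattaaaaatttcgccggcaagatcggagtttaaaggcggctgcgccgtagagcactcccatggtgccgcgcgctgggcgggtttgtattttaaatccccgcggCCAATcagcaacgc
Plk4: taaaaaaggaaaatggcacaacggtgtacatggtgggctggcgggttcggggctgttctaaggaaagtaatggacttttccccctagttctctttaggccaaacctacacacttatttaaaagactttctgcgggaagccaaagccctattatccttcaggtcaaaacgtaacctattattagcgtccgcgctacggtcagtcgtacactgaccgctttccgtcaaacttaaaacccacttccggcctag
Plk2: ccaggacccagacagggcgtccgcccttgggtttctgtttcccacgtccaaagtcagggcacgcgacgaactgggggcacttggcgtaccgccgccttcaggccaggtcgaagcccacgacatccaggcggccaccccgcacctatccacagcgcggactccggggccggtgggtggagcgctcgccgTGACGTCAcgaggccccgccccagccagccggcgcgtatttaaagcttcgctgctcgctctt
Plk3: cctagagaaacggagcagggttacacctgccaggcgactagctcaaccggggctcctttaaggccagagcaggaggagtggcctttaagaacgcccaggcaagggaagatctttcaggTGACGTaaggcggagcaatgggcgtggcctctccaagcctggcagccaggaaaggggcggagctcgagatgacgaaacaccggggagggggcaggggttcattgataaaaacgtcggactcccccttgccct

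These stretches lie at chr7:122159185-122159434 on the plus strand, chr3:40799701-40799950 on the plus strand, chr13:110394794-110395043 on the plus strand and chr4:117133964-117134213 on the minus strand, in the order printed. Plk1 had a CCAAT box at bases -14 to -10 and a CHR at bases 31 to 36 after the start, which lies within this 30-base stretch of chr7:122159453-122159482.

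Plk1: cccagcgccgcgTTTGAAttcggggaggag

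Plk2 had a full palindromic CRE (TGACGTCA) at bases -62 to -55, a match found in 1.79% of 32851 promoter windows of 300 bases. That window runs 50 bases past the start, where Plk2 had a further CRE core at bases 21 to 26. Plk3 had a CRE core at bases -132 to -127, and this core was present in 7.51% of windows, which include those with the full palindrome. Plk1 and Plk4 had none. Either spelling of the CHR was present in 19.2% and CCAAT in 37.4% of windows, and Plk4 had neither within its window. No member matched AP-1 (TGANTCA, in 7.81% of windows) or the serum response CArG box (1.63%), searched on both strands. Nor did any member match, on either strand, RRRCWWGYYY (in 8.36% of windows), which is part of a p53 element and not the whole element. In these letters R is A or G, W is A or T and Y is C or T. Plk4 had the only match to the NF-kB site, which is in 4.51% of windows, at bases 7 to 16. GC boxes (GGGCGG, in 35.7% of windows) were found in Plk1, Plk2 and Plk3. A match describes letters in the window and is no evidence of binding. A lack of matches says nothing about sites outside the window.

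Plk2, which was the least abundant member in all groups, was higher on the membrane with and without ultrasound. In replicates 1, 2 and 3 the level was 0.37, 0.86 and 0.96 FPKM for control, 3.09, 2.64 and 1.37 for BMC, and 2.43, 3.44 and 1.62 for BMC+LIPUS. Every membrane library exceeded every control library, while BMC and BMC+LIPUS overlapped. These levels rest on 24, 64 and 59 counts for control, 194, 174 and 79 for BMC, then 167, 196 and 100 for BMC+LIPUS. Mean levels were 0.730 ± 0.316, 2.37 ± 0.892 and 2.50 ± 0.912 FPKM (SD, n = 3), so Plk2 varied most among the members, with an SD of 43.3%, 37.7% and 36.5% of the mean. The fitted change was 3.38-fold in BMC against control (log2 change 1.76, SE 0.33) and 3.55-fold in BMC+LIPUS against control (log2 1.83, SE 0.33). Adding ultrasound to the membrane gave a log2 change of 0.07 with an SE of 0.29, and its sign turned when BMC replicate 3 (log2 -0.19) or BMC+LIPUS replicate 2 (log2 -0.21) was left out.

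Plk3, the other stress-responsive kinase, was lowest in control, higher on the membrane and higher again with ultrasound. Levels were 3.48, 3.52 and 3.32 FPKM for control, 6.55, 7.15 and 8.37 for BMC, and 10.46, 10.90 and 11.39 for BMC+LIPUS. No library of one group reached the range of another. The counts behind them were 126, 148 and 115 for control, 232, 266 and 272 for BMC, then 405, 350 and 396 for BMC+LIPUS. Means were 3.44 ± 0.106, 7.36 ± 0.927 and 10.9 ± 0.465 FPKM (SD, n = 3). The fitted change was 2.23-fold in BMC against control (log2 1.16, SE 0.12), 1.49-fold in BMC+LIPUS against BMC (log2 0.58, SE 0.10) and 3.33-fold in BMC+LIPUS against control (log2 1.73, SE 0.11). The call of BMC+LIPUS against BMC held in 7 of 19 alternative settings, and the log2 change lay between 0.49 and 0.68 in all 19. When any 1 of the 9 libraries was left out the call held without BMC replicate 3 (log2 0.68) and was lost without each of the others (log2 0.49 to 0.61).

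**Figure D1:**
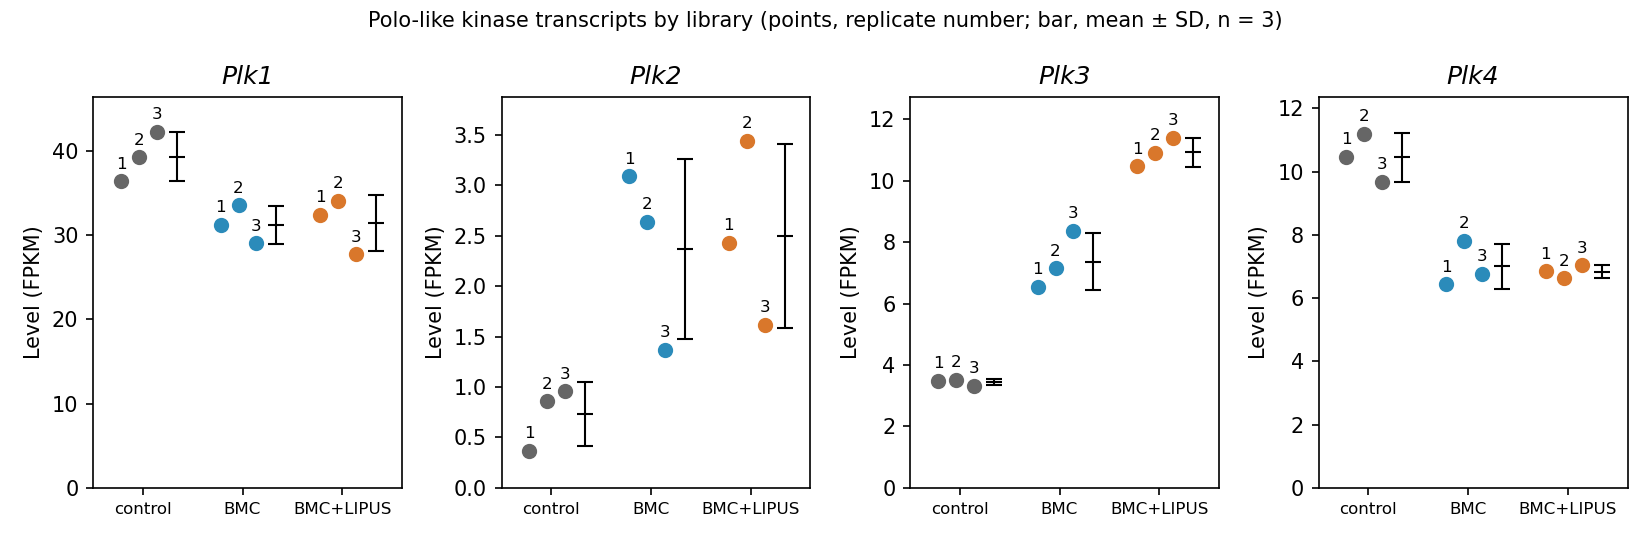
Level in FPKM (vertical axes, linear, from 0) of each polo-like kinase in the 9 libraries, grouped by condition, with the replicate number above each point and the mean ± SD (n = 3) as a bar to the right. Plk3 stands at 3 separate levels, Plk2 overlaps between BMC and BMC+LIPUS, and Plk1 and Plk4 are highest in control.

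Within the groups, of only 3 libraries each, Plk2 and Plk3 did not run in parallel. Replicate 3 had the lowest Plk2 and the highest Plk3 of its group in both membrane groups, at 1.37 against 8.37 FPKM in BMC and 1.62 against 11.39 FPKM in BMC+LIPUS. The same libraries had the highest osmotic mean, the average of log2 counts scaled to library size (CPM) over 4 osmotic response genes picked from these data (Akr1b3, Hspa4l, Slc5a3, Slc6a12). That osmotic mean was 6.78, 6.45 and 6.67 for control, 6.91, 7.54 and 8.27 for BMC, and 8.11, 7.30 and 8.68 for BMC+LIPUS. With it as a covariate the log2 change of Plk3 was 1.00 for BMC against control and 0.50 for the addition of ultrasound. For Plk2 the change was 2.45 and 0.45. The osmotic mean was higher in every membrane library than in any control library. In comparisons with control it therefore cannot be told apart from the membrane.

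Plk1, the mitotic kinase and the most abundant member, was modestly lower on the membrane. Its level was 36.41, 39.25 and 42.27 FPKM for control, 31.23, 33.51 and 29.00 for BMC, and 32.41, 34.09 and 27.75 for BMC+LIPUS. Membrane libraries all lay below the lowest control library, which was 36.41 FPKM, and the membrane groups overlapped each other. In CPM scaled as for the edgeR fit, the lowest control library stood at 77.8 and the highest membrane library at 75.3. The FPKM levels do not include that scaling. Means were 39.3 ± 2.93, 31.2 ± 2.26 and 31.4 ± 3.28 FPKM (SD, n = 3). Plk1 was 1.20-fold lower in BMC (log2 change -0.27, SE 0.08) and 1.19-fold lower in BMC+LIPUS (log2 -0.25, SE 0.08), each against control. With ultrasound added on the membrane the log2 change was 0.01 (SE 0.08). Plk1 was no longer among the called genes of BMC against control without control replicate 3 (log2 -0.21), without BMC replicate 3 (log2 -0.22) or with the osmotic mean as a covariate (log2 -0.15). The same held in BMC+LIPUS against control without control replicate 3 (log2 -0.20), without BMC+LIPUS replicate 3 (log2 -0.18) or with that covariate (log2 -0.09). In bulk RNA, fewer cells in mitosis and less transcript per mitotic cell cannot be told apart.

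Plk4, the centriole duplication kinase, was lower on the membrane with and without ultrasound. Its level was 10.46, 11.20 and 9.67 FPKM for control, 6.43, 7.81 and 6.77 for BMC, and 6.85, 6.63 and 7.04 for BMC+LIPUS. The lowest control library was above all 6 membrane libraries, and the BMC+LIPUS values fell inside the BMC range. Means were 10.4 ± 0.765, 7.00 ± 0.719 and 6.84 ± 0.205 FPKM (SD, n = 3). The fitted level was 1.43-fold lower in BMC (log2 -0.51, SE 0.08) and 1.45-fold lower in BMC+LIPUS (log2 -0.54, SE 0.08) than in control. The log2 change of BMC+LIPUS against BMC was -0.03 (SE 0.08).

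Plk5, a family gene known mainly from brain and outside the 4 members, had 0 counts in all 9 libraries. A count of 0 allows up to 0.181 to 0.237 CPM per library, taking 3 counts as the limit, which covers counting error only.

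In BMC against control 4 of 4 members were called, 2 higher and 2 lower, where edgeR called 36.0% of all tested genes. The FPKM of those groups did not overlap for 4 of 4, beside 46.5% of genes (17.1% higher and 29.4% lower). With ultrasound added on the membrane 1 of 4 was called, Plk3, where 0.108% of all genes were called (0.0916% higher and 0.0167% lower). Plk3 was also the member whose groups did not overlap there, beside 15.8% of genes (7.75% higher and 8.06% lower). In BMC+LIPUS against control 4 of 4 were called, beside 43.0% of genes called, and 4 of 4 did not overlap, beside 50.9% (19.6% higher and 31.3% lower). These counts are for contrasts that guided the choice of the family, so nothing is read from them. The comparisons with control share the 3 control libraries, and the other pairs of comparisons share a membrane group. In absolute log2 change, Plk2 and Plk3 exceeded 99.1% and 96.6% of tested genes in BMC against control, while Plk4 and Plk1 exceeded 82.0% and 58.5%. Nothing is read from these ranks either, as the family was picked with results in view. The rank of Plk2 also rests on 24 to 64 counts per control library.

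**Figure D2:**
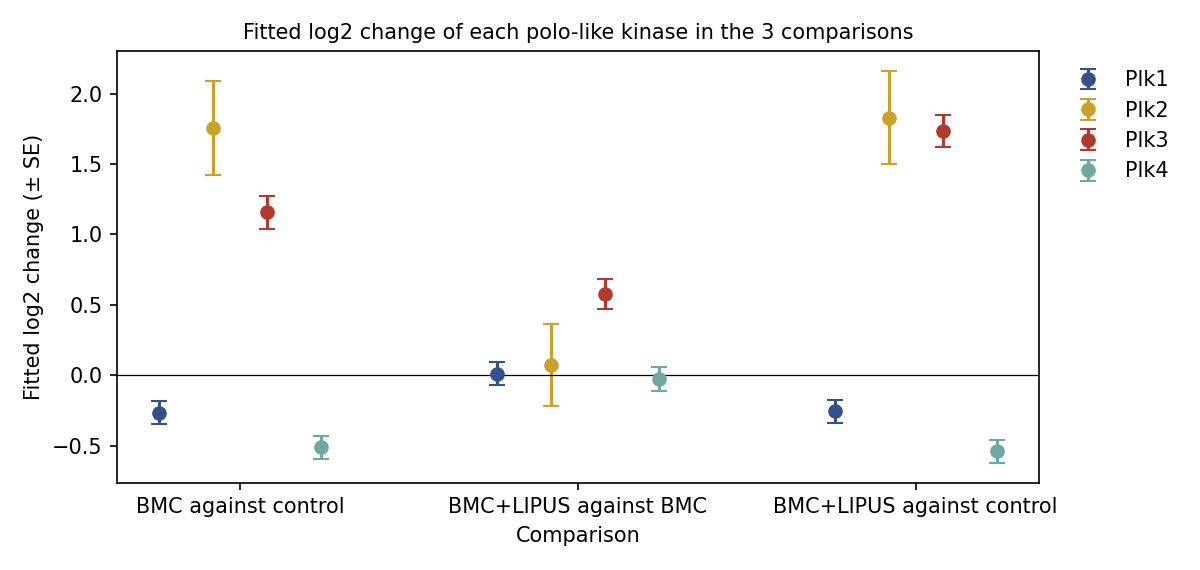
Fitted log2 change of each polo-like kinase (vertical axis, ± SE from the edgeR fit) in the 3 comparisons (horizontal axis). Plk2 and Plk3 lie above 0 and Plk1 and Plk4 below 0 in both comparisons with control, and Plk3 alone is away from 0 in BMC+LIPUS against BMC, at 0.58.

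The summed level of the family overlapped between groups, while the shares of Plk1 and Plk3 did not overlap between any 2 groups. Summed over the 4 members, the level was 53.9 ± 2.86 FPKM for control, 48.0 ± 2.86 for BMC and 51.7 ± 3.65 for BMC+LIPUS (SD, n = 3), and the ranges of the groups overlapped pairwise. The share of Plk1 in that sum was 72.9% ± 2.02 for control, 65.1% ± 1.22 for BMC and 60.7% ± 2.30 for BMC+LIPUS. Plk3 supplied 6.40% ± 0.478, 15.4% ± 2.58 and 21.2% ± 2.26 in the same order. No 2 groups overlapped in the share of Plk1 or in that of Plk3. Plk4 supplied 19.4% ± 1.92, 14.6% ± 0.881 and 13.3% ± 1.35, and Plk2 1.34% ± 0.529, 4.90% ± 1.78 and 4.77% ± 1.43. The shares of Plk4 and Plk2 overlapped between the membrane groups, and neither membrane group overlapped with control. A share also moves with the levels of the other members. Plk1 itself stood at a mean of 31.2 FPKM for BMC and 31.4 for BMC+LIPUS.

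By level per length, the order in control was Plk1, Plk4, Plk3 and Plk2, and no 2 neighbours overlapped. On the membrane Plk3 and Plk4 stood level, at 6.55 to 8.37 and 6.43 to 7.81 FPKM, and did not differ beyond their spread. With ultrasound Plk3 stood above Plk4, at 10.46 to 11.39 against 6.63 to 7.04 FPKM. The lengths implied by counts and FPKM were 2532 bases for Plk3 and 6856 for Plk4. In raw counts Plk4 exceeded Plk3 in every group, with 1958 against 1151 counts summed over the BMC+LIPUS libraries. The order, ratios and shares of different members thus depend on these lengths. The ratio of Plk3 to Plk4 FPKM within a library was 0.330 ± 0.0147 for control, 1.06 ± 0.164 for BMC and 1.60 ± 0.0614 for BMC+LIPUS. The ratio of Plk3 to Plk1 was 0.0879 ± 0.00865, 0.237 ± 0.0445 and 0.351 ± 0.0515, and that of Plk2 to Plk1 was 0.0183 ± 0.00703, 0.0750 ± 0.0261 and 0.0781 ± 0.0214. Plk2 to Plk1 thus overlapped between the membrane groups, and Plk3 to Plk1 did not.

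**Figure D3:**
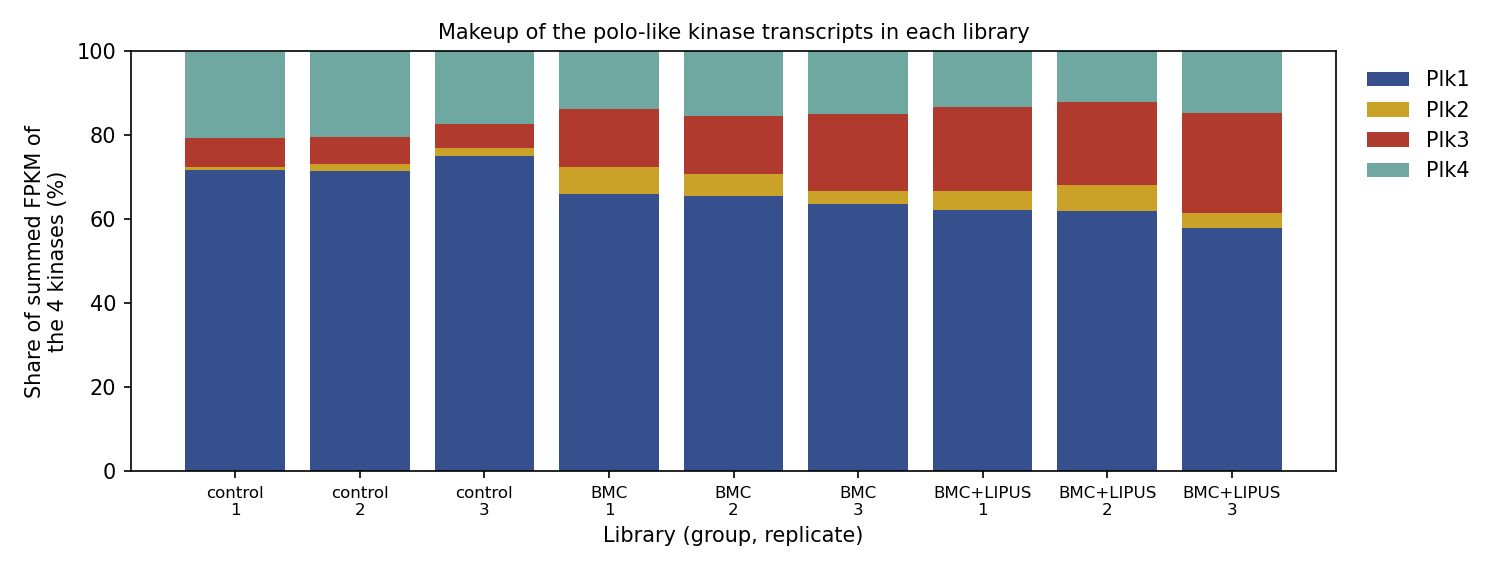
Share of each polo-like kinase in the summed FPKM of the 4 members (vertical axis, %) in each of the 9 libraries (horizontal axis, group and replicate). The Plk3 band widens from 5.91% to 6.86% of the sum for control to 13.8% to 18.4% for BMC and 19.8% to 23.8% for BMC+LIPUS.

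Genes that work with the kinases or are induced with them were described from 8 lists of textbook roles, 172 symbols of which 168 were tested. The lists were chosen with the fall of mitotic genes in these libraries already known, so their counts and the p-values of single genes are not independent evidence of a direction. Over all 12011 genes the median log2 change was 0.01 in BMC against control, with 17.2% called higher and 18.8% called lower. Those 2065 higher and 2253 lower became 1452 and 2765 when scaled by library totals, and 1331 and 2546 with limma on log2(FPKM + 1). Of 20 mitotic entry genes, around the activation of Plk1, 14 fell and 0 rose (median log2 -0.38). Wee1, an inhibitory kinase of Cdk1 whose degradation Plk1 promotes, was 2.13-fold lower (edgeR adjusted p = 1.37e-07), with means of 8.18 ± 0.685 FPKM on the membrane and 18.2 ± 1.23 in control (SD). Pkmyt1, the other inhibitory kinase of Cdk1, was 2.08-fold lower (edgeR adjusted p = 3.27e-06). Fbxo5, the inhibitor of the anaphase-promoting complex also known as Emi1, was 1.77-fold lower (edgeR adjusted p = 1.82e-06). Aurka, the kinase that activates Plk1 together with Bora, was not called (log2 -0.07, SE 0.06). Nor were Ccnb1 (log2 0.05), Cdc25c (0.03), Cks2 (0.16), Lin37 (0.18) and Lin9 (-0.22). These 6 were named after their values were seen.

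Among 16 other mitotic kinases 14 fell and 0 rose, with a median log2 change of -0.54, and 12 of the 16 had a lower change than Plk1. The 2 that were not called were Aurka and Nek6 (log2 -0.14, SE 0.07). Of 32 genes for mitotic effectors of Plk1, 24 fell and 1 rose (median log2 -0.42). The 7 not called were Cdc20, Tpx2, Pttg1, Cenpe, Ect2, Kif2c and Nedd1, with log2 changes from -0.21 to 0.10. Clspn, a checkpoint mediator that Plk1 marks for destruction, was 2.46-fold lower (edgeR adjusted p = 2.16e-08). Kntc1, of the kinetochore complex that Zw10 belongs to, was 2.02-fold lower (edgeR adjusted p = 4.65e-07), and Cdca5, the cohesion factor sororin, was 1.75-fold lower (edgeR adjusted p = 1.33e-06). Wapl, which releases cohesin, was the gene that rose, by 0.33 log2 (edgeR adjusted p = 0.00326).

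Of 29 centriole duplication genes, around Plk4, 14 fell and 1 rose (median log2 -0.35), and 7 of the 29 had a lower change than Plk4 itself. Stil, the scaffold that Plk4 phosphorylates to recruit Sass6, was 1.49-fold lower (edgeR adjusted p = 2.76e-05), with means of 4.36 ± 0.127 FPKM on the membrane and 6.79 ± 0.192 in control (SD). Cep131, a centriolar satellite protein that Plk4 phosphorylates, was 2.75-fold lower (edgeR adjusted p = 1.98e-05). Cep250, the centrosome linker protein C-Nap1, moved the other way, from 4.40 ± 0.142 to 6.31 ± 0.645 FPKM (edgeR adjusted p = 5.67e-05). With ultrasound added it stood at 9.15 ± 0.551 FPKM (log2 change 0.54, SE 0.08, edgeR adjusted p = 0.0196), and it was the only gene of the 168 called in that comparison. The call was lost without BMC replicate 1 or 2 or BMC+LIPUS replicate 1 or 3, with log2 changes of 0.46 to 0.59 and edgeR adjusted p of 0.0629 to 0.131.

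Immediate early genes and p53 targets were followed because Plk2 and Plk3 are induced with them. Of 29 immediate early genes 20 rose and 2 fell (median log2 0.58), and 2 of the 29 had a higher change than Plk2 and 5 than Plk3. Nfkbiz, an atypical NF-kB regulator, went from 3.12 ± 0.180 to 6.99 ± 0.528 FPKM (n = 3, edgeR adjusted p = 7.88e-08). Zfp36, which destabilizes cytokine mRNAs, went from 19.1 ± 2.09 to 38.6 ± 3.58 FPKM (edgeR adjusted p = 5.58e-08), and the transcription factor Egr2 rose 5.79-fold (edgeR adjusted p = 2.08e-09). Those that fell were the AP-1 subunit Fos (log2 -0.97) and the transcription factor Klf4 (log2 -1.51), each called by edgeR. The 7 not called were Dusp6, Gadd45b, Jun, Klf2, Klf6, Myc and Nr4a1, with log2 changes from -0.14 to 0.39. Of 24 p53 target genes 10 rose and 3 fell, and their median log2 change was 0.08. Ephx1, an epoxide hydrolase, was 2.75-fold higher (edgeR adjusted p = 1.14e-08), and Polk, a translesion DNA polymerase, 2.24-fold higher (edgeR adjusted p = 8.44e-08). Cdkn1a, the cell cycle inhibitor p21, went from 33.7 ± 2.73 to 55.9 ± 4.49 FPKM (edgeR adjusted p = 6.26e-07). Ddb2, a DNA damage sensor, Phlda3 and Trp53inp1 were lower, by log2 changes of -0.83, -0.71 and -0.61. The 11 not called were Bax, Bbc3, Ccng1, Fas, Gadd45a, Ppm1d, Rrm2b, Sesn1, Tigar, Xpc and Zmat3, with log2 changes from -0.28 to 0.14. None of the 24 p53 targets had a higher change than Plk2, and 4 had a higher one than Plk3. The family was picked with results in view, so nothing is read from the places of its members in this or the other lists.

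Checkpoint and stress regulators were mostly lower, with 10 of 18 falling and 4 rising (median log2 -0.30). Brca1, of homologous recombination, was 2.63-fold lower (edgeR adjusted p = 2.33e-08) and the checkpoint kinase Chek1 2.17-fold lower (edgeR adjusted p = 1.29e-07). Topbp1, which activates the kinase ATR, was 1.95-fold lower (edgeR adjusted p = 1.13e-08). Those that rose were Hif1a, Mapkapk2, Rad17 and Mapk8, by 0.57, 0.62, 0.26 and 0.24 log2. Of 15 tested genes for substrates of Plk2 and Plk3, 6 fell and 2 rose (median log2 -0.16). The checkpoint kinase Chek2 was 1.57-fold lower (edgeR adjusted p = 0.000119), the phosphatase Cdc25a 1.45-fold lower (edgeR adjusted p = 0.000152) and the topoisomerase Top2a 1.48-fold lower (edgeR adjusted p = 1.99e-05). The 2 that rose were Hif1a and the nucleolar protein gene Npm1, by 0.31 log2 for Npm1. The lists share 15 genes, so their counts are not independent.

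**Figure D4:**
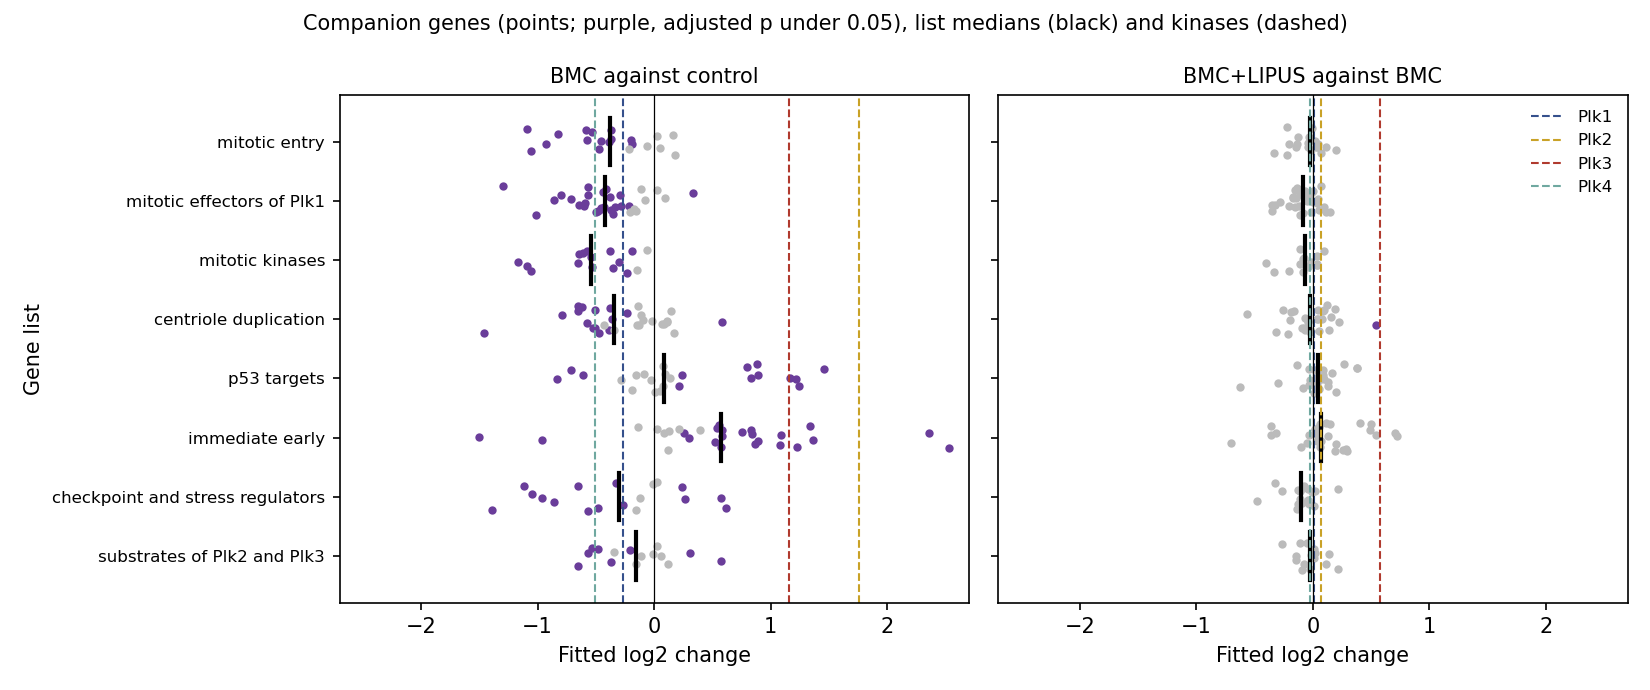
Fitted log2 change (horizontal axes) of the tested genes of 8 lists (rows) in 2 panels, BMC against control on the left and BMC+LIPUS against BMC on the right, with genes called by edgeR in purple, list medians as black bars and the 4 polo-like kinases as dashed lines. Medians of the 3 mitotic lists and the centriole list lie between -0.54 and -0.35 in BMC against control and all list medians lie between -0.10 and 0.07 with ultrasound added, where Plk3 is at 0.58.

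In BMC+LIPUS against BMC none of the other 7 lists had a called gene by edgeR, and list medians ran from -0.10 to 0.07 beside a median of 0.00 over all genes. Without adjustment, 1383 of all genes had a p under 0.05 there. DESeq2 called 6 genes of the lists there, 2 higher and 4 lower. Set against control, BMC+LIPUS had 15 of 16 mitotic kinases lower, 17 of 29 centriole genes lower and 3 higher, 22 of 29 immediate early genes higher and 2 lower and 11 of 24 p53 targets higher and 3 lower. Mitotic entry had 15 of 20 lower and 1 higher, mitotic effectors of Plk1 26 of 32 lower and 1 higher, checkpoint and stress regulators 12 of 18 lower and 5 higher, and substrates of Plk2 and Plk3 6 of 15 lower and 3 higher, beside 21.1% of all genes higher and 21.9% lower. The 2529 higher and 2631 lower genes became 1860 and 3205 when scaled by library totals, and 1741 and 3034 with limma on log2(FPKM + 1).

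The genes whose levels ran most like each kinase over the 9 libraries were found by Pearson's r of log2 CPM, a description that follows the 3 group means. For Plk3 they included Otud7b (r = 0.996), Stat3 (0.993), Tut7 (0.991) and Sltm (0.989). Stat3, a cytokine-activated transcription factor, stood at 5.99, 10.4 and 13.3 FPKM in control, BMC and BMC+LIPUS. For Plk2 they were Nadk (r = 0.982), Dpep3 (0.973), Ctnnd1 (0.973), Rnf114 (0.970) and Etv5 (0.968). Nadk, an NAD kinase, moved little in level, from 110.3 FPKM in control to 117 in BMC and 116 in BMC+LIPUS. For Plk4 they were Dpy19l1 (r = 0.991), Zfp41 (0.989), Apbb2 (0.983), Ncoa2 (0.981) and Kbtbd3 (0.980). For Plk1 they were Gnb1l (r = 0.977), Tmem205 (0.960), Zc3h7b (0.960), Cbfa2t2 (0.956) and Dcakd (0.954). None of the genes named here was on a list of kinase partners.

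Among the members themselves, r of log2 CPM over the 9 libraries was 0.77 between Plk2 and Plk3 and 0.72 between Plk1 and Plk4. It was -0.87 between Plk3 and Plk4, -0.85 between Plk2 and Plk4, -0.78 between Plk1 and Plk3 and -0.42 between Plk1 and Plk2. After group means were removed, r was 0.84 between Plk1 and Plk2, -0.69 between Plk2 and Plk3 and -0.53 between Plk1 and Plk3. It was then -0.10 between Plk1 and Plk4, -0.22 between Plk2 and Plk4 and 0.33 between Plk3 and Plk4. In each group the library with the lowest Plk2 was also the one with the lowest Plk1.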

How the data were processed

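Per the labels' protocols, polyadenylated RNA was made into stranded libraries and sequenced as read pairs. The submitters' processing notes name HTSeq 0.6.1, DESeq2, HISAT2 2.0.1 and cutadapt 1.9.1 with build GRCm39; annotation, strand setting and filters: not given in the sources used here, so overlapping or antisense genes cannot be told apart. The authors deposited raw counts per gene and FPKM rounded to 2 decimals. Of 56691 lines, 2639 had no gene name, held 0.0889% to 0.0976% of counts and were left out, and 77 names on several lines kept the line with the most counts. The table has 6 columns of other libraries that no label names, not used here.

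Named genes averaging 0.5 FPKM or more were tested with edgeR 4.0.16 (R 4.3.3; TMM on tested genes, quasi-likelihood, 3 group means over 9 libraries), with Benjamini-Hochberg adjustment at 0.05. SEs were derived from the F statistic. Log2 CPM used a prior count of 2. The fit was also run on simulated data in which few genes were changed, unlike the comparisons with control. No result above rests on that run. Alternatives used limma 3.58.1, DESeq2 1.42.0 and other filters, scalings and sample sets. The members and lists were chosen with earlier results of these data known. Besides the members and Plk5, text names up to 3 called genes with the smallest p per list and comparison and the 5 genes with the highest r per member, predicted names left out; 1 gene like Plk3 is not reported here. Other list genes named were chosen after their values were seen.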

Additional observations from a re-analysis of the deposited data

How the results depend on the processing

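Each result was recomputed under 18 alternatives, and with the osmotic mean as a covariate, which was added after seeing the data. In BMC against control, Plk2, Plk3 and Plk4 kept their call and direction in every setting where they were tested (Plk2 falls under a minimum of 5 FPKM), and all genes called numbered 3474 to 4521 with 1 library left out. Plk1 lost its call as stated above. In BMC+LIPUS against control, the osmotic covariate left 2809 genes called. In BMC+LIPUS against BMC the 13 calls became 88 with DESeq2, 236 with no filter, 8 with a minimum of 5 FPKM, 2 with only the 6 libraries compared, 221 with the osmotic covariate, 0 and 1 with limma at pseudocounts of 1 and 0.1, and 0 to 51 with 1 library left out. Polo-like kinases called there went from 1 to 0 with either limma fit, a minimum of 5 FPKM or only 6 libraries, and ran from 0 to 1 with 1 library left out. Plk3 was called there without BMC replicate 3 and with no other library left out. List genes called there went from 1 to 6 with DESeq2, 12 with no filter, 8 with the covariate, 0 with either limma fit or only 6 libraries, and 0 to 4 with 1 library left out. The cause was not tested. In that comparison, with 1 library left out, the log2 change of Plk1 ran from -0.038 to 0.082, of Plk2 from -0.21 to 0.30 and of Plk4 from -0.094 to 0.059, so their direction is undetermined. Replicate numbers as a block (replicate block) gave 51 genes and 4 list genes called in BMC+LIPUS against BMC and changed no call of a kinase. These are the numbers in the titles, while the descriptions number the membrane libraries differently. The numbers were not shown to pair the libraries, since the correlation of same-numbered deviations was -0.033, 0.031 and 0.21 in that comparison. Counts of 24 to 64 limit Plk2 in control.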
